A study of Mus musculus with 4 samples.

Results

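The fatty acid desaturase genes Fads1, Fads2 and Fads3 and the elongase gene Elovl5 were followed in mouse DFAT cells, the fibroblast-like descendants of cultured mature adipocytes that have given up their fat stores. The 4 genes are 4 of 18193 genes with a probe set on the array, and they were read by 10 probe sets, taken as all those whose only platform gene symbol is one of the 4 names. The set was chosen by the log2 signals of Fads3, which lay lower with both treatments, so the Fads3 values below describe that choice and support nothing beyond it. RNA came from DFAT cells given the ROCK kinase inhibitor Y-27632, from cells given its solvent DMSO, from cells transfected with an siRNA against Mkl1, and from cells transfected with a control siRNA. All cells were DFAT cells kept in the same serum-containing medium, and the labels state no dose, duration, passage or animal. Each group had 1 single-colour Affymetrix array, so no difference has a replicate error or a test, and precision is limited by having a single array per group.

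Mammalian cells make long polyunsaturated fatty acids from dietary linoleic and alpha-linolenic acid by alternating desaturation and elongation at the endoplasmic reticulum. Fads2 encodes the desaturase of the first step, Elovl5 the elongase that lengthens its product, and Fads1 the desaturase that then forms arachidonic and eicosapentaenoic acid. Fads3 is a close relative of both desaturases, and its product is known to place a double bond in sphingoid bases, the backbone of ceramides. Fads1 and Fads2 are known targets of the transcription factor SREBP-1, and the products of the pathway feed membrane phospholipids and eicosanoids.

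Fads1, Fads2 and Fads3 lie side by side on mouse chromosome 19, and Elovl5 lies on chromosome 9 (assembly GRCm38.p6, from the reference gene table). Fads3 spans chr19:10040855-10060113, Fads2 chr19:10062765-10101503 and Fads1 chr19:10182877-10196874, and Elovl5 spans chr9:77917365-77984519. Fads3 and Fads2 are separated by 2651 bases, and Fads2 and Fads1 by 81373 bases. The files do not give the build of the array's probes, and these positions come from the gene table alone.

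The 250 bases before the start in the RefSeq promoter table (GRCm38.p6) are shown for the 3 of 4 genes matched there, so that the gene that differed with both treatments can be read beside its neighbour Fads2 and its pathway partner Elovl5, which differed little. The windows are chr19:10041298-10041547 on the plus strand for Fads3, which begins inside the gene's span in the gene table, chr19:10101504-10101753 on the minus strand for Fads2 and chr9:77917115-77917364 on the plus strand for Elovl5. Capitals mark matches, on either strand, to the GC box GGGCGG, the CCAAT box or the E box CACGTG.
Fads3: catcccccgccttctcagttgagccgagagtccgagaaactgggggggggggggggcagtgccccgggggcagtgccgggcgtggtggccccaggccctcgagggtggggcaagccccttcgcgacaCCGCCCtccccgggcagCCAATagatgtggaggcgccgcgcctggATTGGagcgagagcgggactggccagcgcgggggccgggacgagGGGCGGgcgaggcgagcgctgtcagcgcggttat
Fads2: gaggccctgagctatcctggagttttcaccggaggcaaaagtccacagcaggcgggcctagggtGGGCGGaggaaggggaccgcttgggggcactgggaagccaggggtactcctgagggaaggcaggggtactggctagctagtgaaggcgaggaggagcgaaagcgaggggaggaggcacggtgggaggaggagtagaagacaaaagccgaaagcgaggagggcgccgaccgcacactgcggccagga
Elovl5: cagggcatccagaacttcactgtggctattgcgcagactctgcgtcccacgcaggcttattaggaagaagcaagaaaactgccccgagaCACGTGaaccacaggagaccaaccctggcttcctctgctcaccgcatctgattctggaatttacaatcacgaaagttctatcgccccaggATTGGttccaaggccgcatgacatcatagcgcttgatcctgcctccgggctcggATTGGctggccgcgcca

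The Fads3 window held 2 GC boxes and 2 CCAAT boxes, the Fads2 window 1 GC box, and the Elovl5 window 2 CCAAT boxes and 1 E box. Among 32851 promoter windows of the same length, 32.7% held a GC box, 33.8% a CCAAT box and 6.02% an E box, each counted as at least 1 match. The SREBP element TCACNCCAC, in which N is any base, the nuclear receptor motif AGGTCA, the letters TATAA and the CArG box bound by SRF were also searched on both strands and had 0 matches in these 3 windows. Of all windows, 1.05%, 14.0%, 22.8% and 1.47% held them, in that order. No 2 of the motifs found overlapped. The GC content was 74.4% for Fads3, 64.8% for Fads2 and 55.6% for Elovl5, and the median over all windows was 52.4%. A match or its absence describes the letters of these windows only.

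All signals are log2 values made by the authors with RMA, and a difference of 1 on this scale is 2-fold. Signals are compared between arrays for the same probe set, never between probe sets. A gene is represented by its brightest probe set on average, and the 11600 genes with a signal of at least 5.69, the overall median, on 1 or more arrays were analysed. All 4 desaturase and elongase genes passed this filter. The targeted transcript Mkl1, listed under its present symbol Mrtfa, had a log2 signal of 7.70 with Mkl1 siRNA and 8.55 with control siRNA, a difference of -0.85, and 8.18 with Y-27632 against 8.32 with DMSO.

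Fads3, the sphingoid base desaturase, had the lower signal on both treated arrays. Its brightest probe set, 1418773_at, read 10.20 with Y-27632 and 11.20 with DMSO. The difference of -0.996 is a ratio of 0.501 and lay just short of 2-fold. The same probe set read 9.54 with Mkl1 siRNA and 10.88 with control siRNA, which gives a difference of -1.34 and a ratio of 0.394. Both treated arrays thus stood below both control arrays for this probe set. The control siRNA array was itself below the DMSO array by -0.31.

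The other Fads3 probe sets ran the same way. Probe set 1435910_at read 8.58 with Y-27632 and 9.17 with DMSO, a difference of -0.59. It read 8.17 with Mkl1 siRNA and 9.19 with control siRNA, a difference of -1.02, and the control arrays differed by 0.02. For this probe set the controls were nearly equal and both treated arrays were below them. Probe set 1449219_at read 6.74 with Y-27632 and 7.28 with DMSO, a difference of -0.53. It read 5.91 with Mkl1 siRNA and 7.04 with control siRNA, a difference of -1.14, and the control arrays differed by -0.24. Probe sets 1418773_at and 1449219_at were designed from the same sequence record, so they are not independent readings of the gene. All 3 Fads3 probe sets were at least 2-fold lower with Mkl1 siRNA, and 0 of 3 reached 2-fold with Y-27632. The Fads3 probe sets nearest to the 2-fold line were 1418773_at outside it at -0.996 with Y-27632 and 1435910_at inside it at -1.02 with Mkl1 siRNA.

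**Figure D1:**
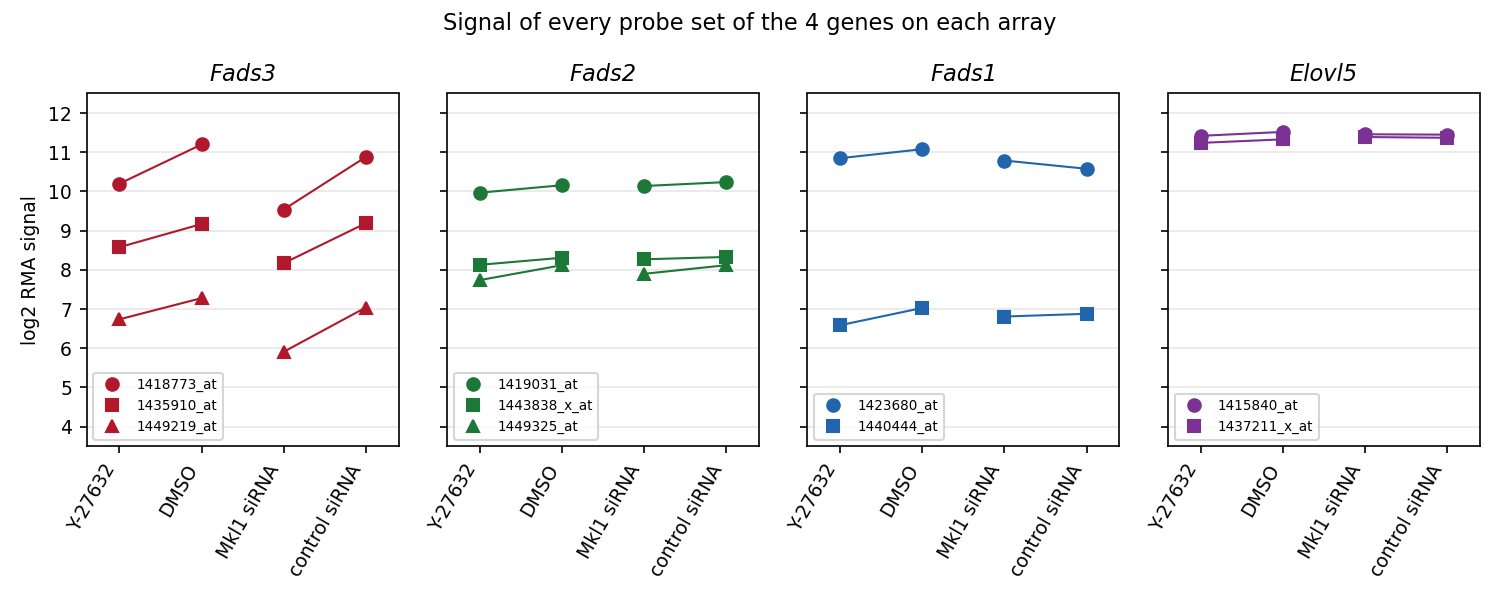
Log2 RMA signal (vertical axis) of every probe set of Fads3, Fads2, Fads1 and Elovl5 on the arrays for Y-27632, DMSO, Mkl1 siRNA and control siRNA, 1 array each. Lines join a treatment to its own control. The 3 Fads3 lines slope in both pairs, and those of Elovl5 are nearly flat.

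By genes, 0 of 4 were at least 2-fold lower with Y-27632, against 0.224% of the genes analysed (26 of 11600). With Mkl1 siRNA 1 of 4, Fads3, was at least 2-fold lower, against 1.74% of the genes analysed (202 of 11600). None of the 4 was at least 2-fold higher in either comparison, against 1.27% and 1.79% of genes. Since Fads3 was chosen for these differences, its count and the ranks that follow are a description. They use probe set 1418773_at, the lowest of its 3 probe sets in both comparisons. From the lowest difference upward, Fads3 ranked 27 of 11600 with Y-27632 and 76 of 11600 with Mkl1 siRNA. Only 3 other genes were at least as low as Fads3 in both comparisons, namely Gm30873 at -1.43 and -1.63, Ankrd1 at -1.21 and -1.82, and Gna14 at -1.19 and -1.47, for Y-27632 and Mkl1 siRNA in that order. These names were read off after their values were seen. Ankrd1 encodes a stretch-responsive nuclear ankyrin repeat protein and Gna14 a G protein alpha subunit.

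Measured against the other control array, Fads3 stood at -0.68 for Y-27632 minus control siRNA and at -1.66 for Mkl1 siRNA minus DMSO. For Y-27632 minus control siRNA, 87 genes were at least 2-fold lower, so the rank of 27 holds only with DMSO as the control.

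**Figure D2:**
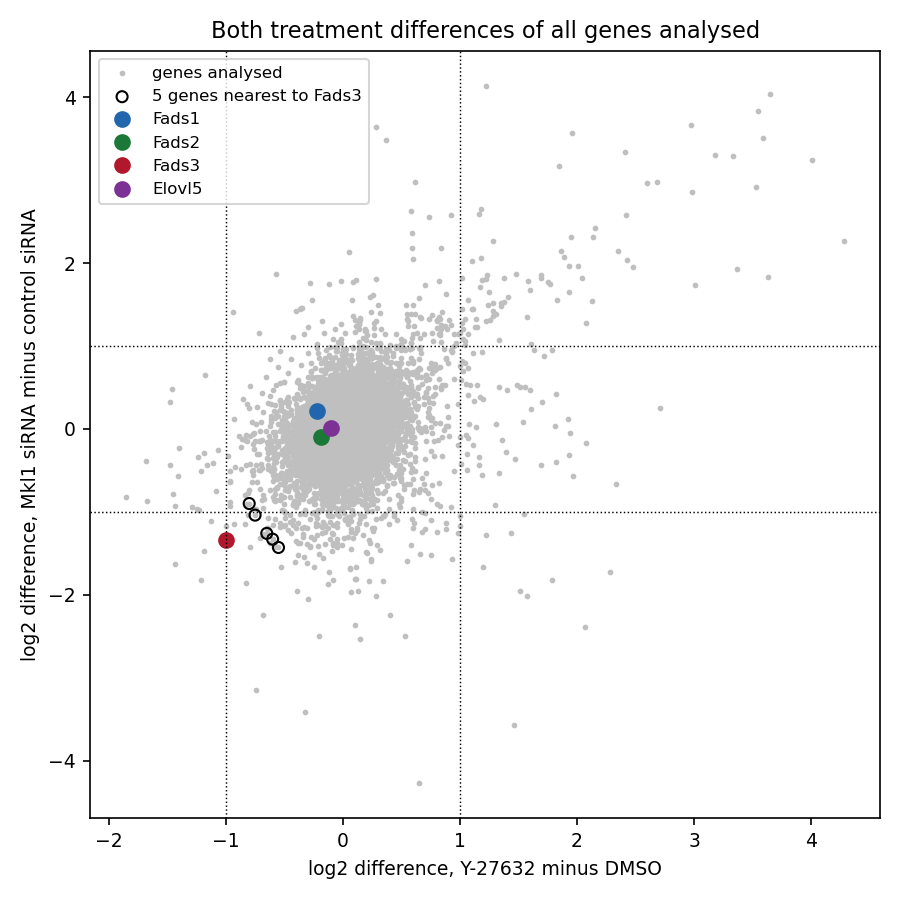
Log2 difference with Y-27632 (horizontal axis, minus DMSO) and with Mkl1 siRNA (vertical axis, minus control siRNA) of 11600 genes, in grey, with the 4 named genes in colour and the 5 genes nearest to Fads3 as open circles. Dotted lines mark 2-fold. Fads3 lies at the lower left edge of the cloud, and Fads1, Fads2 and Elovl5 lie within it.

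Fads2, the first desaturase of the polyunsaturated pathway, differed little in either comparison. Probe set 1419031_at read 9.97 with Y-27632 and 10.16 with DMSO, a difference of -0.19 or a ratio of 0.877. It read 10.14 with Mkl1 siRNA and 10.24 with control siRNA, a difference of -0.10. The 4 arrays of this probe set spanned 0.27, and 68.4% of genes had a range at least as wide. Probe set 1443838_x_at differed by -0.19 with Y-27632 and -0.05 with Mkl1 siRNA. Its name marks probes that may bind other transcripts. Probe set 1449325_at, built from the same record as 1419031_at, differed by -0.38 and -0.22. All 3 Fads2 probe sets were thus below 0 in both comparisons, by amounts that many genes reached: 32.7% of genes lay at least as far from 0 as Fads2 with Y-27632 and 72.9% with Mkl1 siRNA.

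Fads1, the desaturase after elongation, had no common direction. Probe set 1423680_at read 10.85 with Y-27632 and 11.08 with DMSO, a difference of -0.22. It read 10.79 with Mkl1 siRNA and 10.58 with control siRNA, a difference of 0.21. The control siRNA array was the lowest of the 4, below DMSO by -0.50, which is a wider gap than either treatment showed from its own control. Set against the other control, the signs turned, with 0.27 for Y-27632 minus control siRNA and -0.29 for Mkl1 siRNA minus DMSO. The second probe set, 1440444_at, read 6.59 with Y-27632 and 7.03 with DMSO, a difference of -0.44. It read 6.81 with Mkl1 siRNA and 6.88 with control siRNA, a difference of -0.08, so the probe sets differed in sign with Mkl1 siRNA.

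Elovl5, the elongase that works between both desaturases, was nearly level on the 4 arrays. Probe set 1415840_at read 11.42 with Y-27632 and 11.52 with DMSO, a difference of -0.10. It read 11.46 with Mkl1 siRNA and 11.45 with control siRNA, a difference of 0.01. Its whole range over the arrays was 0.10, and 96.5% of genes had a range at least as wide. Probe set 1437211_x_at differed by -0.09 and 0.02. On both probe sets the Y-27632 array was the lowest of the 4, at -0.03 and -0.12 from the control siRNA array.

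Across the 10 probe sets of the 4 genes, all 10 were below 0 with Y-27632 (median -0.30, from -0.996 to -0.09). They include the 3 Fads3 probe sets whose values chose the set, and probe sets of 1 gene are not independent. The share of all probe sets below 0 was not counted. Against control siRNA, the Fads1 probe set 1423680_at stood at 0.27 with Y-27632 and the rest stayed below 0. With Mkl1 siRNA 7 of 10 were below 0, with a median of -0.09 and a range from -1.34 to 0.21. Between control siRNA and DMSO 6 of 10 were below 0, with a median of -0.04. The median over the genes analysed was 0.00 for both treatments and -0.01 between the controls. From the 5th to the 95th percentile those genes ran from -0.34 to 0.44 with Y-27632 and from -0.63 to 0.61 with Mkl1 siRNA, so Fads3 lay outside both ranges and Fads1, Fads2 and Elovl5 inside both. Between control siRNA and DMSO the genes ran from -0.54 to 0.49. At least as far from 0 as Fads3 with Y-27632 were 1.53% of genes in that comparison and 2.09% between the controls. For Fads3 with Mkl1 siRNA these shares were 1.61% and 0.94%.

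The difference of Fads3 was not shared along the cluster with Y-27632. Rab3il1, which encodes an exchange factor for a Rab GTPase and ends 2474 bases before Fads3 begins, differed by -0.08 with Y-27632. With Mkl1 siRNA Rab3il1 differed by -1.37, close to the -1.34 of Fads3, with a log2 signal of 9.19 with Mkl1 siRNA and 10.57 with control siRNA. Its 6 probe sets ran from -1.97 to -0.04 in that comparison and from -0.22 to 0.19 with Y-27632. On the other side of the cluster, Fen1, a flap endonuclease of DNA replication, differed by -0.20 and 0.10, and Tmem258, a subunit of the enzyme that transfers glycans to proteins, by -0.04 and 0.03. Of the 7 neighbours analysed, 5 were below 0 with Y-27632 (median -0.04) and 4 with Mkl1 siRNA (median -0.11), and 1 of them, Rab3il1, was at least 2-fold lower with Mkl1 siRNA. Dagla, which makes the endocannabinoid 2-arachidonoylglycerol, differed by -0.02 and -0.37, Syt7, a synaptotagmin, by -0.19 and -0.22, and the transcription factor gene Myrf was below the filter.

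**Figure D3:**
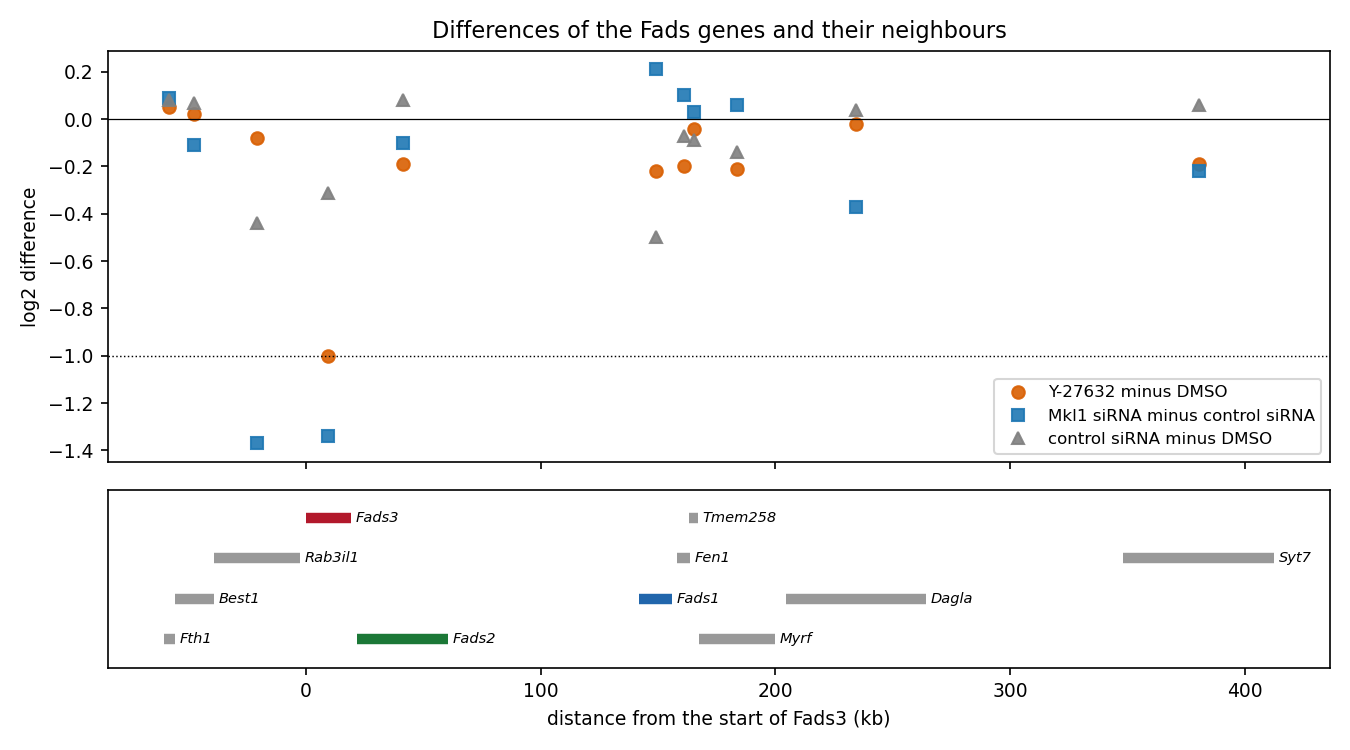
Upper panel, log2 difference of each gene around the Fads cluster (vertical axis) against the distance of its midpoint from the start of Fads3 in kb, for the 2 treatment comparisons and the control comparison. Lower panel, the span of each gene on the same axis. Fads3 is far below 0 in both treatment comparisons and Rab3il1 in that of Mkl1 siRNA.

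The other enzymes of the elongation cycle did not follow Fads3 as a group. Of 12 listed, 8 were analysed, and Elovl2, Elovl3, Elovl4 and Elovl7 were below the filter. Elovl2, the elongase for longer polyunsaturated chains, had log2 signals between 2.70 and 2.91. With Y-27632 5 of 8 were above 0 (median 0.15), and with Mkl1 siRNA 4 of 8 (median -0.26). Hacd2, a dehydratase of the cycle, was the only one at least 2-fold higher, by 1.13 with Y-27632 and 1.23 with Mkl1 siRNA. The 2 probe sets of Hacd2 ran from 0.90 to 1.13 and from 1.18 to 1.23. Its relative Hacd3 differed by 0.25 and 0.90, the ketoacyl-CoA reductase Hsd17b12 by 0.30 and 0.58 and the enoyl-CoA reductase Tecr by 0.04 and 0.10. Elovl6, the elongase of palmitate, stood on opposite sides, at 0.83 with Y-27632 and -0.93 with Mkl1 siRNA, although its 3 probe sets ran from -0.01 to 0.88 and from -0.93 to 0.00. Elovl1, which lengthens saturated chains, differed by -0.13 and -0.88, and Hacd1 by -0.03 and -0.62. Hacd4 was lower in both comparisons, at -0.68 and -0.80, but control siRNA stood above DMSO by 1.06. Against the other control array, Hacd4 stood at -1.74 with Y-27632 and at 0.25 with Mkl1 siRNA. With less specific probe sets left out, those named _s_at, _x_at or _a_at, the list median with Mkl1 siRNA moved to 0.58, and against DMSO it was 0.14.

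Among other desaturases, Scd1, the stearoyl-CoA desaturase that makes oleate, had log2 signals of 13.89 with Y-27632 and 12.06 with DMSO, a difference of 1.83. With Mkl1 siRNA it read 13.71, against 12.16 with control siRNA, a difference of 1.55. Fads3 and Scd1, the analysed desaturases furthest from 0, thus stood on opposite sides in both comparisons. Scd2 differed by 0.33 and 0.18 and Degs1, the dihydroceramide desaturase, by -0.08 and 0.02. Fads6 was below the filter. Of the listed cytochrome b5 genes, which encode electron carriers, Cyb5a differed by 0.08 and 0.28 and Cyb5b by 0.21 and 0.66. Of the genes for their reductases, Cyb5r3 differed by 0.07 and -0.26 and Cyb5r1 by -0.05 and -0.35. For Cyb5r1 control siRNA stood at -0.87 from DMSO, a wider gap than either treatment showed. In the whole list 5 of 8 analysed genes were above 0 in each comparison, with medians of 0.07 and 0.10.

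Genes of sphingoid base and ceramide metabolism, in which Fads3 acts, had medians near those of all genes. With Y-27632 11 of 18 analysed genes were above 0 (median 0.07) and 0 were at least 2-fold from DMSO. With Mkl1 siRNA 11 of 18 were below 0 (median -0.10), 2 were at least 2-fold lower and 2 at least 2-fold higher. The lower ones were Asah1, acid ceramidase, at -1.33 and Cers2, a ceramide synthase, at -1.01. The higher ones were Sgms2, a sphingomyelin synthase, at 1.62 and Ormdl1, which restrains sphingoid base synthesis, at 1.15. Control siRNA stood below DMSO for Sgms2 by -1.03 and for Ormdl1 by -1.08, and the second Sgms2 probe set differed by 0.04. Against DMSO, 0 of 18 were at least 2-fold away with Mkl1 siRNA.

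Genes that place polyunsaturated chains in phospholipids and shorten them in peroxisomes were also read. Of 10 acyl-CoA synthetase and acyltransferase genes, 7 were above 0 with Y-27632 (median 0.28) and 5 with Mkl1 siRNA (median -0.06), with 0 at least 2-fold away in either. Acsl4, which prefers arachidonic acid, differed by 0.43 and 0.48, Lpcat3, which places polyunsaturated chains in phospholipids, by 0.46 and 0.08, Acsl3 by 0.48 and -0.91 and Lpcat2 by 0.26 and -0.90. Of 10 peroxisomal genes, 8 were above 0 with Y-27632 and 7 with Mkl1 siRNA, each with a median of 0.32, while control siRNA minus DMSO had a median of 0.19. Against the other control array, 6 of 10 were above 0 with Y-27632 (median 0.02) and 10 of 10 with Mkl1 siRNA (median 0.40). Ehhadh, a bifunctional enzyme of peroxisomal oxidation, differed by 0.95 with Y-27632 and stood at a ratio of 2.0 with Mkl1 siRNA. Its signals of 5.50 with DMSO and 5.37 with control siRNA lay under the filter level. It passed the filter only through the treated arrays, at 6.45 and 6.37. The thiolase and sterol carrier gene Scp2 differed by 0.66 and 0.72 and the multifunctional enzyme Hsd17b4 by 0.47 and 0.54. Eicosanoid genes had medians of 0.05 in both comparisons. Of 11 analysed, Ephx2, the soluble epoxide hydrolase, was at least 2-fold higher in both, at 1.07 and 1.56, with control siRNA below DMSO by -1.16. The Ephx2 signal of 5.17 with control siRNA lay under the filter level. Ltc4s, leukotriene C4 synthase, differed by 0.73 and 0.49 and Ptgs2, the inducible cyclooxygenase, by -0.40 and -0.07. Ltc4s read 5.54 with DMSO and 5.36 with control siRNA, also under that level.

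Regulators and targets of lipid synthesis were counted in the same way. Of 11 regulators, 10 were above 0 with Y-27632 (median 0.19) and 9 with Mkl1 siRNA (median 0.17). Srebf1, which encodes SREBP-1, differed by 0.19 and 0.37, the oxysterol receptor gene Nr1h3 by 0.40 and 0.65, and Srebf2 by -0.25 and -0.91. Insig1, which retains SREBP proteins in the endoplasmic reticulum, was higher by 1.33 with Y-27632 and 0.51 with Mkl1 siRNA. Of 13 SREBP-1 targets outside the 4 genes, 13 were above 0 with Y-27632 (median 0.33) and 10 with Mkl1 siRNA (median 0.13), while 9 were above 0 between control siRNA and DMSO (median 0.23). Against the other control array, 10 of 13 were above 0 with Y-27632 (median 0.28) and 8 with Mkl1 siRNA (median 0.45). Scd1 and Elovl6, given above, are also in this list. Fasn, fatty acid synthase, differed by 0.88 and 0.85 and Thrsp by 1.77 and 1.75, with 3 Thrsp probe sets from 0.08 to 4.28 and from 0.07 to 5.19. Fads1 and Fads2, which are also SREBP-1 targets, stood at -0.22 and -0.19 with Y-27632 and at 0.21 and -0.10 with Mkl1 siRNA, and Fads1 changed sign in both comparisons against the other control array.

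**Figure D4:**
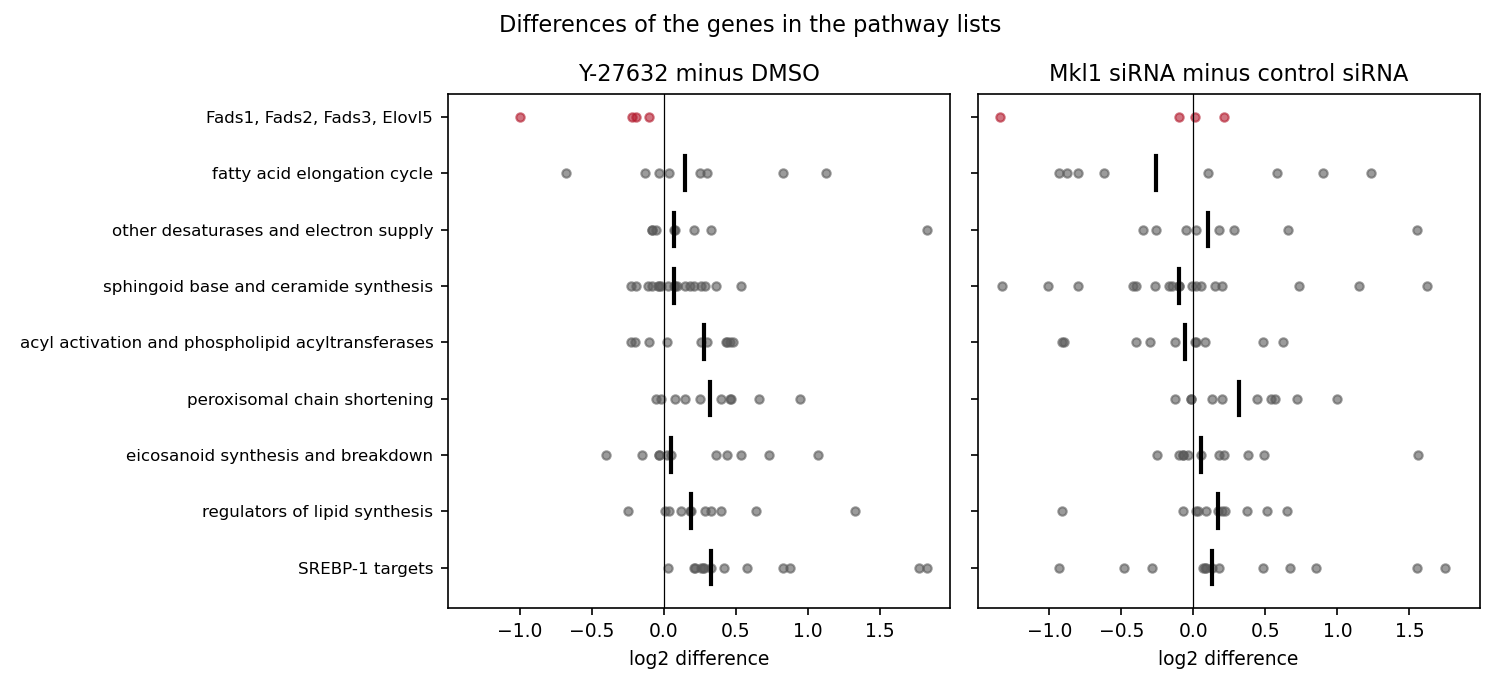
Log2 difference (horizontal axis) of each analysed gene of the pathway lists (rows, points), with the list median as a black bar, for Y-27632 minus DMSO on the left and Mkl1 siRNA minus control siRNA on the right. The top row holds Fads1, Fads2, Fads3 and Elovl5, where the point furthest left is Fads3.

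Other measures also differed on the treated arrays, some in the direction of Fads3 and some in the opposite one. The 15 analysed mature adipocyte markers were all above 0 in both comparisons (medians 1.41 and 1.93), with 11 and 12 at least 2-fold higher. Without probe sets named _s_at, _x_at or _a_at the medians were 2.60 and 2.92, and with the filter at the 75th percentile of all values the median with Y-27632 was 2.60. Their mean log2 signal was 9.95 with Y-27632 and 7.97 with DMSO, and 10.16 with Mkl1 siRNA and 7.95 with control siRNA. Adipoq, which encodes adiponectin, was higher by 3.55 and 3.83, and Pparg, the regulator of fat cell formation, by 1.23 and 1.86. Some of the markers lay under the filter level on the control arrays. Cidec read 5.61 with DMSO and 5.19 with control siRNA, and Car3 read 5.38 and 4.39. In bulk RNA, a smaller share of cells with a transcript and less of it per cell cannot be told apart. MRTF and SRF targets were below 0 in 17 of 18 cases in both comparisons (medians -0.35 and -0.52), with Tagln, an actin-binding protein, at -1.25 and -0.96 and Srf at -0.21 and -0.49. The exception in both was Mylk, at 0.58 with Y-27632 and at 1.03, past 2-fold, with Mkl1 siRNA. The control probe sets for ribosomal RNA of the small subunit differed by medians of -0.48 in both comparisons and 0.15 between control siRNA and DMSO. The 3-prime minus 5-prime signal of the Actb control probe sets, a sign of RNA integrity, was higher by 0.26 with Y-27632 and 0.14 with Mkl1 siRNA. It differed by -0.03 between control siRNA and DMSO. The part of each of these in the Fads3 difference was not tested.

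The DFAT label was set against fibroblast and progenitor markers, of which 11 were analysed, with a mean log2 signal of 12.04 with Y-27632, 11.91 with DMSO, 11.57 with Mkl1 siRNA and 12.09 with control siRNA. With Mkl1 siRNA 11 of 11 were below 0 (median -0.31) and 2 were at least 2-fold lower, so these markers moved with Fads3 in that comparison, and their part in its difference was not tested. With Y-27632 4 of 11 were below 0 (median 0.04), and between control siRNA and DMSO 3 of 11 were (median 0.17). Against DMSO, 7 of 11 were below 0 with Mkl1 siRNA (median -0.18). The collagen gene Col1a1 differed by 0.18 with Y-27632 and by -1.05 with Mkl1 siRNA, the hyaluronan receptor gene Cd44 by -0.58 and -0.72, and the growth factor receptor gene Pdgfrb by 0.06 and -0.40. Cd34, a progenitor surface protein, read 6.36 with Y-27632 and 4.57 with DMSO, and 3.53 with Mkl1 siRNA and 5.36 with control siRNA. All but the Y-27632 signal lay under the filter level, so its difference of -1.82 with Mkl1 siRNA rests on signals under that level. Of 30 markers of endothelial, blood, muscle, skeletal and liver cells with a probe set, 19 were below the filter on all arrays. They include the endothelial Pecam1 and Cdh5, the leukocyte Ptprc and the hepatocyte Alb. The other 11 passed the filter, as did 11600 of all 18193 genes. Among the 11, the chondrocyte marker Sox9 read 8.31 with DMSO, the muscle marker Des 8.01 and the macrophage marker Lyz2 6.73. Sox9 differed by 0.35 with Y-27632 and -1.05 with Mkl1 siRNA, Des by 0.16 and -0.03, and Lyz2 by -0.84 and -0.13. These markers therefore do not exclude other cell types.

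The profiles most like that of Fads3 over the 4 arrays, by Euclidean distance of log2 signals centred on each gene's mean, were Cubn (distance 0.276), Lrrc75a (0.310), Map1b (0.316), Pcyt1b (0.319) and Gm9706 (0.345). Cubn, the endocytic receptor cubilin, differed by -0.75 with Y-27632 and -1.04 with Mkl1 siRNA. Its log2 signals of 4.65 to 6.08 straddled the filter level. Map1b, a microtubule-associated protein, differed by -0.65 and -1.26, with 3 probe sets from -0.65 to -0.11 and from -1.26 to -0.31. Pcyt1b, an enzyme of phosphatidylcholine synthesis, differed by -0.55 and -1.43, and its second probe set stood at -0.08 with Mkl1 siRNA. Lrrc75a differed by -0.60 and -1.33 and Gm9706 by -0.80 and -0.90. The nearest profiles of the other members were Anp32b, Ate1 and Rnf31 for Fads1 (0.023 to 0.037), Art1, Dlk1 and Plcxd1 for Fads2 (0.013 to 0.023), and Eid2, Runx1 and Lgals3bp for Elovl5 (0.011 to 0.018). Fads1, Fads2 and Elovl5 varied less over the arrays than Fads3 did, by 0.50, 0.27 and 0.10 against 1.66.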

How the data were processed

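Total RNA of 4 DFAT samples was hybridised to 1 Affymetrix mouse array each. The authors deposited RMA signals on a log2 scale, with RMA named per the submitters' processing notes. The sources used here do not give its version or chip definition. The values themselves show the scale (2.02 to 14.6, array medians 5.67 to 5.71). RMA compresses differences near background, and quantile normalisation hides differences in total RNA per cell.

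A single gene symbol was listed for 34958 of 45101 probe sets, several for 932 and none for 9211. The first kind was named through the platform annotation, updated by gene number from the GRCm38.p6 gene table (34741 found), and 13 control probe sets were left out. With 1 array per group no test, p-value or left-out replicate was possible. Genes were counted from 2-fold. Named genes were all probe sets of the 4 genes, up to 4 members per list with the widest treatment difference, a fixed set of pathway genes, and the nearest profiles; further names were chosen after their values were seen. The 4 genes and all lists were chosen with earlier results of these data known. Alternatives were the mean of probe sets, leaving out probe sets named _s_at, _x_at or _a_at, centring on the median, loess on level (span 0.3), the other control array, other filters and other thresholds. Calculations used Python 3.11.15, pandas 2.3.3 and statsmodels 0.14.6. The code was run on simulated data with shifts far larger than the noise. That run checks the arithmetic only and says nothing about how reliable the 2-fold counts are here.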

Additional observations from a re-analysis of the deposited data

How the results depend on the processing

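With 1 array per group, alternatives for single genes and list medians were judged against the SD of the control siRNA minus DMSO difference over genes (0.36). A count of genes was taken as moved when it was more than 1.5-fold from the main count, and only moved counts are given below. Fads3 ran from -1.02 to -0.68 with Y-27632 and from -1.66 to -1.17 with Mkl1 siRNA over 5 alternatives each, with the same sign in all. Since Fads3 was chosen for being lower in both comparisons, the shared sign is a description. Leaving out probe sets named _s_at, _x_at or _a_at could not change Fads3, which has none, and centring hardly moved it. With Y-27632 Fads3 passed 2-fold after subtraction of a loess curve (-1.02). It was short of 2-fold as the mean of its probe sets (-0.71) and against control siRNA (-0.68). Fads2 ran from -0.27 to -0.19 with Y-27632 and from -0.12 to -0.01 with Mkl1 siRNA. Its sign was the same in all 5 alternatives of both comparisons, but the value of -0.01, against DMSO, is almost no difference. Fads1 moved to 0.27 with Y-27632 against control siRNA and to -0.29 with Mkl1 siRNA against DMSO. Elovl5 ran from -0.12 to -0.03 and from -0.06 to 0.01.

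With Y-27632, 147 genes were at least 2-fold higher and 26 lower; these counts were 236 and 87 against control siRNA, 96 and 14 with the filter at the 75th percentile (8.08), 348 and 154 at 1.5-fold, and 84 and 11 at the 99th percentile of the control difference (1.32). With Mkl1 siRNA, the counts of 208 and 202 became 317 and 375 against DMSO, 629 and 686 at 1.5-fold, and 113 and 81 at the 99th percentile, and 129 were higher with the stricter filter. Of 166 list medians under alternatives, 160 moved by less than 0.36 and 6 by more, those of the adipocyte markers and the elongation cycle. Most list medians were themselves smaller than 0.36 in size, so one could vanish without counting as moved. The peroxisomal median with Y-27632, for example, went from 0.32 to 0.02 against control siRNA. The count of 160 therefore says little about how stable the small medians are. No paired analysis was possible because each group has 1 array. Signals near background limit the reading of weak genes such as Elovl2 and Cd34.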
